A study of Danio rerio with 5 samples.

Results

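The regions described here are stretches of zebrafish chromatin that were called accessible in every library of the series. They lie outside runs of 10 or more neighbouring regions, though most still have a neighbour within 50 kb. They were chosen from the peak lists themselves. Peaks of the 5 libraries were merged where they shared at least 1 bp, and merged regions no more than 50 kb apart were joined into chains. A region was kept if its chain held fewer than 10 regions, if it lay on chromosomes 1 to 25 except 4 and more than 2 Mb from the ends of the coordinates in the lists, and if all 5 libraries had a peak in it. This gave 197 common regions of the 1326 merged regions in the series, and 32.9% of the 598 that had a peak in all libraries. Because presence in all 5 lists chose them, that presence is not a finding and is not tested.

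The libraries came from whole larvae at 120 h after fertilization, of the strain labelled ABNYU. The 3 control libraries were from phenotypically normal siblings of uhrf1-hi272 mutants, whose own genotype at the locus is not stated beyond that. The 2 mutant libraries, mutant 1 and mutant 3, were from larvae labelled uhrf1 mutant, which the series text names as uhrf1-hi272. Both groups were dissociated with trypsin, and 50000 live cells entered each library. The protocol speaks of 10 embryos and in 1 passage of livers, whereas the design text has 3 larvae for each genotype. No source used here says whether libraries came from separate pools, so the spread behind each p-value is that of the libraries and may be technical. Whole larvae hold many cell types, and the lists cannot tell a site open in few cells from a site weakly open in many.

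In ATAC-seq the Tn5 transposase cuts and tags DNA that is not wrapped in nucleosomes or otherwise covered. Sites open in most cell types are typically promoters of broadly used genes. Uhrf1 is a nuclear protein that binds hemimethylated DNA after replication and brings the maintenance methyltransferase Dnmt1 to it, and larvae without it lose DNA methylation across the genome. The hi272 allele comes from a retroviral insertion screen. The series asks how accessibility differs between these mutants and their siblings. No genome or annotation of GRCz10, the build read from the sequence names, was used here, so regions are named by position alone, with coordinates counted from 1, and no base sequence, gene or repeat class is given.

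Lists held between 766 and 1374 peaks, and with read depth unknown, intervals for counting error are not available. The common regions took in 27.3% and 26.9% of the peaks of control 1 and mutant 1, the shortest lists. In control 2, control 3 and mutant 3 they took in 19.1%, 18.6% and 21.5%. Since the rule asks for a peak of every library in each region, no library could have fewer than 197 peaks inside them. Their number was 220 in control 1, 235 in control 2, 255 in control 3, 206 in mutant 1 and 256 in mutant 3.

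The regions were spread over 23 of the 24 chromosomes that the rule allows. Chromosome 7 held the most, 29 regions or 14.7% of them, followed by chromosome 8 with 16 and chromosomes 13, 14 and 20 with 12 each. Chromosome 21 held none, although 11 merged regions outside clusters and ends lay there. Per length, chromosome 7 had 0.392 regions per Mb and chromosome 9, with 2 regions, had 0.0364. The common share of the regions outside clusters also differed between chromosomes, from 70.0% on chromosome 11, where 7 of 10 were common, through 12.0% on chromosome 10, where 3 of 25 were, to the 0 of 11 on chromosome 21.

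**Figure D1:**
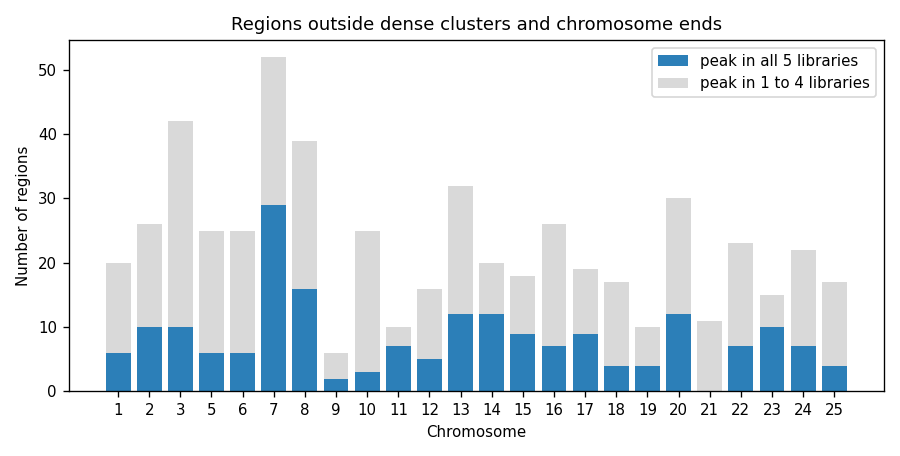
Number of merged regions outside dense clusters and chromosome ends (y axis) on each chromosome used (x axis), split into regions with a peak in all 5 libraries (blue) and in 1 to 4 libraries (grey). Chromosome 7 has the most common regions, 29 of 52, and chromosome 21 has none of 11.

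Few of the common regions stood alone. Of the 197, 30 were isolated, with no other merged region within 50 kb, and 167 lay in chains of 2 to 9 regions. Common regions were found in 93 chains, of which 48 held a single common region and 9 held at least 5. Those 9 chains, on 7 chromosomes, spanned 334 kb in sum and held 59 of the common regions, 29.9%. Isolated merged regions were seldom common, at 30 of 233 or 12.9%. In chains of 2 to 4 regions 63 of 120 (52.5%) were common, and in chains of 5 to 9 regions 104 of 193 (53.9%). For comparison, 275 of 490 regions (56.1%) were common in dense clusters of the same chromosomes, to which the 2 Mb end limit was not applied. Chain size is part of the rule, so these shares are a description.

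Chains of 9 regions are the largest that the rule admits, and 7 of them held 45 common regions. On chromosome 14 the chain from 19788743 to 19811541 had all 9 of its regions called in every library, within 22.8 kb. Chromosome 7 carried a pair of such chains, at 52723775 to 52764966 with 7 common regions and at 54768175 to 54791115 with 8. The chain on chromosome 8 at 34228459 to 34249606 held 7. Chains on chromosome 13 (18979060 to 19048162) and chromosome 24 (16117450 to 16137334) held 5 each, and the chain on chromosome 25 (26170630 to 26215084) held 4. Fold enrichment in the common regions of these chains ranged from 1.42 to 8.97. Just beyond the limit, 3 chains of exactly 10 regions were left out. They lay on chromosomes 5, 16 and 18 and held 6, 7 and 9 regions called in all libraries, with fold enrichments between 1.34 and 10.3.

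Each peak carries the authors' fold enrichment over the background of its own library. For a region with several peaks in a library, the highest fold is given. Most common regions were modestly enriched. The median fold was 2.87 in control 1, 2.64 in control 2, 2.61 in control 3, 2.75 in mutant 1 and 2.68 in mutant 3. These medians lay above the medians of the whole lists, which ran from 1.99 in control 3 to 2.504 in control 1. The measures are not alike, since the list medians are over single peaks. Presence in all lists also chose the regions, so this comparison is a description. In 118 regions the fold was at least 2 and under 5 in all 5 libraries. It was at least 5 in all libraries at 14 regions, at least 10 at 3 regions, and under 2 in all libraries at 9 regions.

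The same regions were strong or weak in each library. Across the 197 regions, Spearman's rho of fold between pairs of libraries ran from 0.825, for control 2 with mutant 1, to 0.925, for control 2 with mutant 3. All pairs share the regions and the genome background, so this is a description. The highest value joined a control to a mutant, and the 2 mutants had a rho of 0.857.

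The region with the highest rank was isolated on chromosome 20, at 4437679 to 4438066, and 388 bp long. Its fold was 22.6, 24.5 and 22.8 in controls 1 to 3, and 21.3 and 23.8 in mutants 1 and 3. The libraries of the genotypes overlapped, and the peak edges agreed within 5 bp in all 5 lists. Next was an isolated region of 220 bp on chromosome 18 at 13162193 to 13162412. There the fold was 14.4, 32.3 and 19.4 in the controls and 10.8 and 15.7 in the mutants, so that control 2 was at least 2 times control 1 and both mutants. Although the folds were spread 3.00-fold, the start and end of this peak differed by at most 4 and 5 bp between libraries. The region on chromosome 16 at 2759143 to 2759363, 221 bp long, had the next rank. Its fold was 11.8, 12.1 and 11.9 in the controls and 10.98 and 12.3 in the mutants, nearly the same value in each library.

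The region of rank 4, isolated on chromosome 24 at 38404538 to 38404968, separated the libraries in a different way. Its fold was 9.68, 22.3 and 12.3 in controls 1 to 3, and 8.69 and 21.9 in mutants 1 and 3. Control 2 and mutant 3 were the high pair, and control 1 and mutant 1 the low pair, so that each genotype had a high and a low library. The other regions among the 10 were enriched 6.34 to 10.1 times. A region on chromosome 20 (20020544 to 20020886) came next, then 1 on chromosome 7 (52764140 to 52764966), 1 on chromosome 11 (34879449 to 34880358) and 1 on chromosome 15 (14838314 to 14838995). The last were at 16239468 to 16239747 on chromosome 23 and at 59228747 to 59230444 on chromosome 7. Of the 10, 6 were shorter than 500 bp and 3 were isolated.

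**Figure D2:**
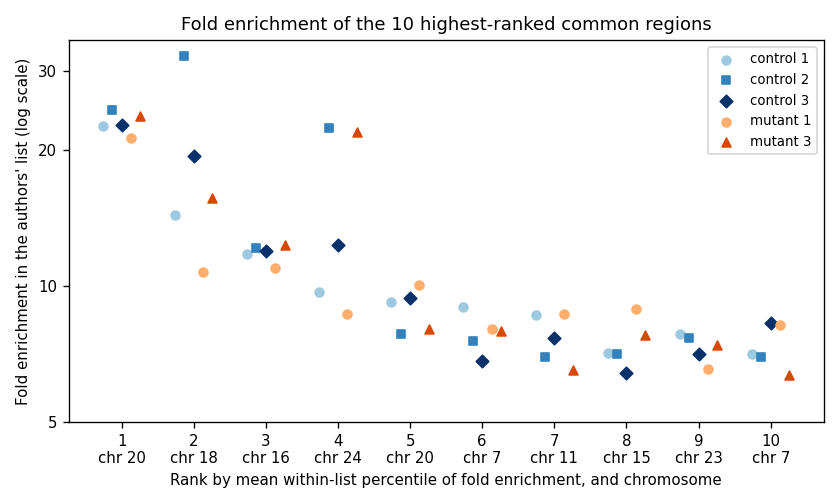
Fold enrichment in the authors' lists (y axis, log scale) for the 10 common regions with the highest mean within-list percentile of fold (x axis, rank and chromosome), with a point per library. Libraries lie close together at ranks 1 and 3, while rank 2 spans 10.8 to 32.3 and rank 4 spans 8.69 to 22.3, with mutant 1 lowest in both.

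The 5 weakest regions had low folds in every library. Their choice by mean percentile over the same libraries largely fixes this, so it is a description. The lowest rank belonged to chromosome 17 at 46973424 to 46973936, with folds of 1.52, 1.36 and 1.40 in the controls and 1.45 and 1.43 in the mutants. On chromosome 7 at 54773501 to 54775096 the folds were 1.56, 1.48 and 1.55 in the controls and 1.47 and 1.499 in the mutants. Low fold did not always mean short cover. Of the 1596 bp of that merged region, peaks covered 1238, 1591 and 368 bp in controls 1 to 3, and 1253 and 689 bp in mutants 1 and 3. The other three of the 5 lowest were at 19798360 to 19799066 on chromosome 14, at 34245256 to 34246328 on chromosome 8 and at 49786497 to 49787736 on chromosome 3. Their folds lay between 1.45 and 1.78. All 5 lay in chains of 6 to 9 regions.

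The chromosome 3 region shows the limit of what merging joins. Its peaks covered 386, 1211 and 671 bp in controls 1, 2 and 3, and 377 and 1224 bp in mutants 1 and 3. It was alone among the 197 in having no base covered in all 5 libraries (0 bp in common), because its shorter peaks lay in different parts of it. Its −log10 q was 0.311 to 1.84. A q of 0.05 or lower was reached in all libraries at 189 regions, and 8 regions missed it in at least 1 library. At a q of 1e-05 or lower in all libraries, 158 regions remained.

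Equal fold did not come with equal q. At a like fold, the median q-value was smaller in chains of 9 than at isolated regions. This pattern was noticed in these data and is given without a test. In control 2, regions with a fold of 2 to 2.5 had a median −log10 q of 8.28 when isolated (n = 4), of 7.34 in chains of 2 to 8 regions (n = 36) and of 141 in chains of 9 (n = 16). The medians for isolated regions and for chains of 9 were 3.23 and 20.3 in control 1, and 13.96 and 55.8 in control 3. In mutant 1 they were 6.02 and 30.1, and in mutant 3 they were 13.2 and 59.4. These medians rest on 4 to 6 isolated regions and 10 to 17 regions in chains of 9. Chains of 9 thus had the higher median in each of the 5 libraries. Regions of a chain are neighbours at 1 locus and not independent, and the chains differed. In control 2, regions of this fold had a −log10 q of 185 to 435 in the chromosome 14 chain of 9. In the chromosome 25 chain of 9 they had 7.31 and 7.89, below the isolated median. Large values were not limited to chains of 9, since chains of 2 to 8 reached 218. In control 1 the ranges did not overlap, at 1.96 to 3.67 for isolated regions and 4.41 to 124 in chains of 9. Ranges overlapped in the other libraries. In control 3, for example, an isolated region of 4287 bp on chromosome 11 (17430453 to 17434739) had a −log10 q of 192 at a fold of 2.40. The q-value depends on read number as well as on fold, and read numbers were not analysed here.

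Fold enrichment differed by at most 1.5 times between the highest and the lowest library at most regions. The median ratio was 1.25, and 166 of 197 regions (84.3%) had a ratio of at most 1.5. At 11 regions, listed after their values were seen, the ratio was 2 or more. In all 11 the lowest fold was in control 1 or mutant 1, the libraries with the shortest lists, and in 9 the highest was in control 2. On chromosome 12 at 21161658 to 21161951, for example, the fold was 2.23, 4.87 and 3.74 in controls 1 to 3, and 1.98 and 2.56 in mutants 1 and 3. On chromosome 5 at 59680812 to 59681157 it was 5.81, 11.5 and 9.73 in the controls and 5.37 and 7.80 in the mutants. In both, controls 2 and 3 were high, mutant 3 was intermediate, and control 1 and mutant 1 were low. On chromosome 7 at 71113782 to 71116709 it was 3.41, 8.74 and 8.17 in the controls and 3.48 and 8.26 in the mutants. Here mutant 3 was as high as controls 2 and 3, and each genotype had a low library. This region held 1 peak in control 1 and in mutant 1, and 2 peaks in control 2, control 3 and mutant 3. Where a library had 2 peaks, the higher fold was taken. The 11 regions were not typical of the 197. Over all 197, the highest fold was in control 1 at 80 regions and in mutant 1 at 46. The lowest fold was in control 1 at 13 regions, in mutant 1 at 35 and in control 3, which has the longest list, at 81. The part of list length, read number or peak splitting in these differences was not tested.

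The common regions were from 167 to 9510 bp long, with a median of 1073 bp, and 283 kb in sum. Of them 48 were under 500 bp, 110 were at least 500 but under 2000 bp and 39 were 2000 bp or longer. Length and fold were unrelated in rank, with a Spearman's rho of 0.035 across the 197 regions. The median of the mean fold was 2.76, 2.63 and 3.02 in the 3 length classes. The highest folds, up to a mean of 22.99, were nevertheless in the shortest class, and no region of 2000 bp or more had a mean fold above 6.41.

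**Figure D3:**
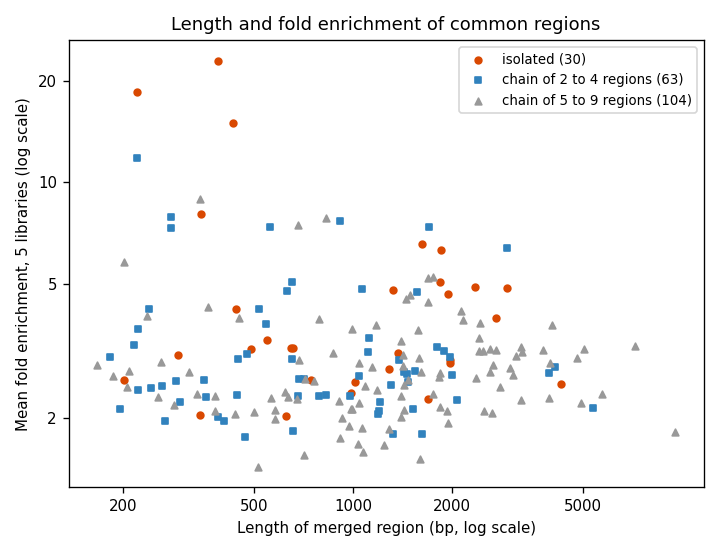
Mean fold enrichment over the 5 libraries (y axis, log scale) against the length of the merged region (x axis, log scale) for the 197 common regions, by the size of their chain. There is no trend with length (rho 0.035), and the 3 isolated regions at the top, with mean folds from 14.99 to 22.99, are all under 500 bp.

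The longest region was on chromosome 2 at 15002500 to 15012009. Peaks covered 6964, 9057 and 8009 bp of it in controls 1, 2 and 3, and 9462 and 8266 bp in mutants 1 and 3. Mutant 1 had 1 peak across it, where control 3 and mutant 3 had 4 each, so the number of peaks in it does not count separate sites. The next in length spanned 7188 bp on chromosome 24 (16117450 to 16124637) and 5703 bp on chromosome 14 (19791949 to 19797651). They were followed by 5373 bp on chromosome 23 (12865633 to 12871005) and 5049 bp on chromosome 13 (19034632 to 19039680), and 3 of these 4 belonged to chains of 9. The 3 shortest had 167 bp on chromosome 24 (16125334 to 16125500), 183 bp on chromosome 20 (3519020 to 3519202) and 186 bp on chromosome 7 (64238402 to 64238587). The shortest region on chromosome 24 lay in the same chain as the 7188 bp region. Neighbours could be very close. The smallest gaps between common regions were 444 bp on chromosome 7 (before 54772547), 451 bp on chromosome 15 (before 7290592) and 465 bp on chromosome 17 (before 46973424). Across the pair on chromosome 15, the fold was 1.86 to 2.44 in the left region and 3.41 to 4.39 in the right, higher on the right in all 5 libraries. Gaps to the next common region of the chromosome were under 1 kb in 31 of 174 cases and over 1 Mb in 62.

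How sharply a region was bounded varied. The share of a region's length that was covered in all 5 libraries had a median of 68.1%, and reached 90% in 45 regions but not 50% in 56. Both outer edges agreed within 20 bp in all libraries at 31 regions (15.7%) and within 50 bp at 64. Regions under 500 bp had a median shared cover of 83.4%, against 61.3% in the middle class and 67.1% in the longest. Edges that differ between libraries lengthen a merged region, and the share is taken of that length. The length classes are thus not independent of the share. Isolated regions had a median of 85.7%, and regions in chains of 2 to 9 had 66.8%. Isolated regions could be long and still sharply bounded. On chromosome 7 at 58346045 to 58347980, peaks covered 1930, 1936 and 1929 bp in the controls and 1931 bp in each mutant.

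At 138 regions every library had a single peak, and at the other 59 at least 1 library had several. Libraries differed in this. A region was broken into 2 or more peaks 17 times in control 1, 31 times in control 2, 46 times in control 3, 8 times in mutant 1 and 47 times in mutant 3. The count was lowest in control 1 and mutant 1, which have the shortest lists, and the genotypes overlapped.

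No difference between the genotypes was detectable in how much of the common regions was under peaks. Peaks covered 225, 235 and 225 kb in controls 1, 2 and 3, and 239 and 227 kb in mutants 1 and 3. The means were 228 ± 5.67 kb (SD, n = 3) and 233 ± 8.42 kb (SD, n = 2), a difference of 5.01 kb with a two-sided exact permutation p of 0.4. The groups overlapped, since mutant 3 lay below control 2. The median length under peaks per region was 765, 861 and 782 bp in the controls and 861 and 785 bp in the mutants. The difference of 20.3 bp had an exact permutation p of 0.6. Mean peak numbers were 237 ± 17.6 for the controls (SD, n = 3) and 231 ± 35.4 for the mutants (SD, n = 2), and the exact permutation p was 1. Common regions held 37.9%, 33.8% and 33.98% of all covered length on the same chromosomes in controls 1 to 3, and 35.6% and 35.9% in mutants 1 and 3, with an exact permutation p of 1. The two-sided p was taken as 2 times the smaller one-sided p. Computed so, the smallest p that 3 against 2 libraries allow is 0.2. No comparison could therefore reach 0.05, and these p-values do not show that the genotypes were alike. The rule also kept only regions with a peak in every library, so regions with peaks in a single genotype could not enter these comparisons.

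The direction of each of these differences changed in some runs with libraries left out. In these runs regions were chosen anew from the remaining lists, which gave 190 to 219 regions. The changes below thus mix the missing library with a changed set of regions. Without mutant 1 the difference in covered length turned to -5.20 kb, that in median length to -37.0 bp and that in peak number to 18.0. Without control 1 the difference in median length was -6.50 bp, and without control 3 the difference in peak number was 2.5. The difference in share, 0.52 percentage points with all libraries, was -0.069 without control 2, -0.092 without control 3 and -0.089 without mutant 1. Leaving out number 1 of both genotypes, an alternative chosen after seeing the data, gave -8.50 kb, -48.5 bp, 8.50 peaks and 0.62 percentage points.

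**Figure D4:**
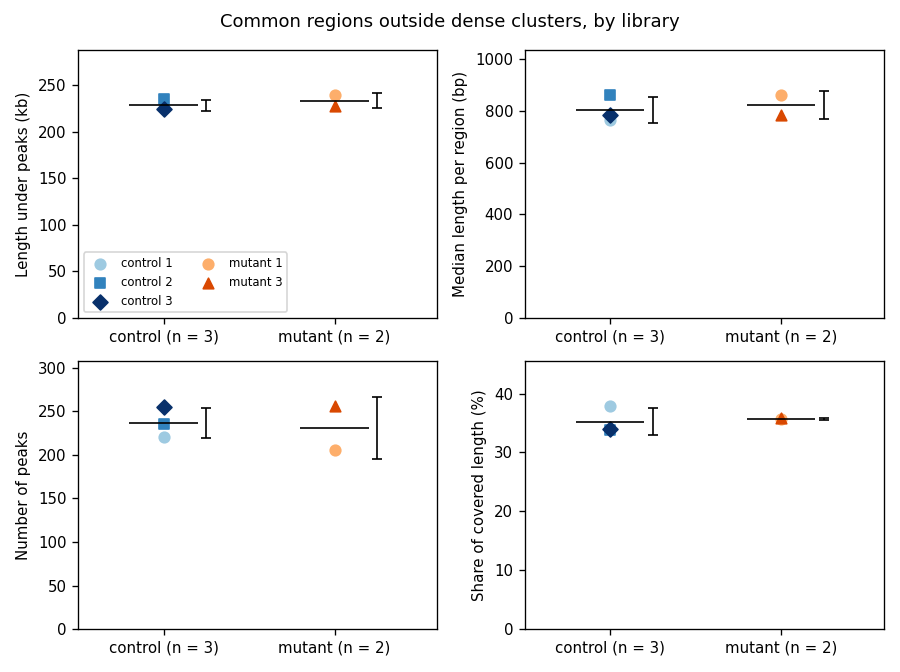
Length under peaks, median length per region, number of peaks and share of the covered length (y axes, from 0) in the 197 common regions, for 3 control and 2 mutant libraries. Points are libraries, lines are group means and bars are 1 SD, and in each panel the groups overlap.

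Region by region, the length under peaks seldom separated the genotypes. At 26 of 197 common regions (13.2%) both mutants were longer than all 3 controls, where 13.7% of all 598 regions common to the series met the same condition. Both mutants were shorter at 8 regions (4.06%), against 4.18% of the 598. The shares were thus near the background of the series. In the dense clusters 46 of 275 common regions (16.7%) were longer and 11 (4%) shorter in both mutants. The ratio of mutant to control mean length had a median of 1 over the 197 regions, with 98 above 1 and 97 below, and a median of 1.01 over the 598. It was within 1.1 times at 115 of the 197 (58.4%) and at 48.0% of the 598. No single region can reach a p of 0.05 with 5 libraries, so regions were not tested one at a time.

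The groups were often separated by few bp. The gap between their nearest values had a median of 21.0 bp at the 26 longer regions and 74.0 bp at the 8 shorter regions. It was at most 20 bp at 12 of the longer and 3 of the shorter regions. It was 100 bp or more at 3 longer and at 4 of the 8 shorter regions. The ratio of mean lengths had a median of 1.25 at the longer and 0.828 at the shorter regions. The counts of separated regions also grow when a library is left out, since fewer values need to be separated. Without control 1, 39 of 190 were longer and 45 shorter (20.5% and 23.7%), against 21.7% and 19.6% of all common regions of the series called the same way. Without control 2 there were 46 and 14 of 208 (22.1% and 6.73%, against 24.5% and 6.2%). Without control 3 there were 39 and 18 of 203 (19.2% and 8.87%, against 19.5% and 8.02%). The shares of longer and shorter regions thus moved with those of the whole series. Omitting mutant 1 gave 50 and 21 of 197 (25.4% and 10.7%, against 27.6% and 10.1%). Omitting mutant 3 gave 54 and 46 of 208 (25.96% and 22.1%, against 32.9% and 20.6%). Omitting number 1 of both genotypes gave 71 and 70 of 219 (32.4% and 31.96%, against 35.2% and 28.8%).

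The highest ratio among the separated regions was on chromosome 14 at 28494207 to 28494885. Peaks covered 183, 156 and 185 bp in controls 1, 2 and 3, and 672 and 197 bp in mutants 1 and 3. The ratio of 2.49 came from mutant 1, and mutant 3 exceeded the longest control by 12 bp. On chromosome 1 at 44349360 to 44350732, an isolated region, the lengths were 610, 191 and 561 bp in the controls and 1359 and 781 bp in the mutants, a ratio of 2.36. Both mutants were clear of the controls there by 171 bp. The third region, on chromosome 16 at 18459625 to 18460598, had 481, 562 and 177 bp in the controls and 936 and 943 bp in the mutants, a ratio of 2.31. Here the 2 mutants agreed within 7 bp, the groups lay 374 bp apart, and the fold was low throughout, at 1.90, 1.95 and 1.70 in the controls and 2.06 and 1.87 in the mutants. Its −log10 q was 0.881 in control 1, which misses a q of 0.05.

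The lowest ratio among the separated regions was on chromosome 15 at 14832040 to 14834459, where peaks covered 2414, 1709 and 1185 bp in controls 1, 2 and 3, and 619 and 1071 bp in mutants 1 and 3. The ratio was 0.478, and the controls themselves differed by more than the 114 bp between the groups. On chromosome 7 at 52754247 to 52757363 the lengths were 3098, 2109 and 2097 bp in the controls and 1212 and 1699 bp in the mutants. The folds of that region in their own lists were 2.86, 2.98 and 2.47 for the controls and 3.82 and 3.13 for the mutants. On chromosome 15 they were 3.41, 3.03 and 2.78 for the controls and 4.36 and 3.76 for the mutants. The third, on chromosome 8 at 34245256 to 34246328, had 1053, 941 and 922 bp in the controls and 888 and 417 bp in the mutants, a ratio of 0.671, and is also among the 5 weakest regions named above. Its folds were 1.69, 1.61 and 1.45 for the controls and 1.55 and 1.65 for the mutants. Less length under peaks in the mutants thus stood beside higher folds in the regions on chromosomes 7 and 15, and beside overlapping folds on chromosome 8. These 3 had the lowest ratios of the 8 shorter regions, and the other shorter regions did not all have higher folds in the mutants. Each fold is relative to its own list. Where a library had several peaks, the highest fold was taken, and peak numbers differed. On chromosome 7 they were 1, 3 and 3 in the controls and 2 and 3 in the mutants. On chromosome 15 they were 1, 2 and 2 in the controls and 1 and 3 in the mutants. All 3 regions lay in chains of 5 to 9 regions.

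**Figure D5:**
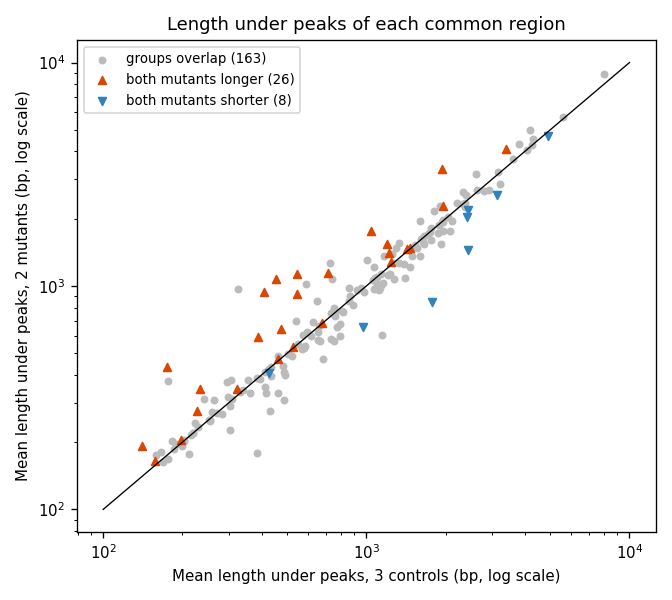
Mean length under peaks in 2 mutants (y axis, log scale) against 3 controls (x axis, log scale) for each of the 197 common regions, with a line of equality. Regions where both mutants were longer than all controls (26, orange) or shorter (8, blue) are marked. Of the 197 regions, 115 have a ratio within 1.1 times. The marked regions had a median ratio of 1.25 for the longer and 0.828 for the shorter. Some of them lie close to the line, with ratios as near to it as 1.01 and 0.956. The highest and lowest ratios of the 197, 2.99 and 0.468, are at unmarked regions.

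The common regions outside the clusters were set beside those inside in each library. Their median length under peaks was shorter than that of the 275 common regions in dense clusters, by 71.8 ± 49.6 bp (SD, n = 5 libraries), and the difference ran from -140 (mutant 1) to -11 bp (control 3). Their median fold was higher in 5 of 5 libraries, by 0.25 ± 0.08 (SD, n = 5). The libraries read the same regions, so their shared direction is a description of these regions and was not tested.

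Next to the common regions lay 349 regions outside clusters that some library lacked. Of these 141 had a peak in 1 library, 128 in 2, 43 in 3 and 37 in 4. Among the 37 regions just short of the rule, the missing library was mutant 1 in 16, control 1 in 11, control 3 in 6 and control 2 in 4, and in none, a count of 0, was it mutant 3. The library lacking a peak was thus mostly number 1 of either genotype. The 37 had folds between 1.21 and 6.96, and the median of their mean fold was 1.91 against 2.74 for the common regions. Regions found in a single library belonged mostly to control 3, with 86 of 141, followed by control 2 with 29, mutant 3 with 17, mutant 1 with 7 and control 1 with 2. Control 3 also had the longest list, with 1374 peaks, followed by control 2 with 1229 and mutant 3 with 1191. Control 1 had 806 and mutant 1 had 766. The part of list length in these counts was not tested. At the chromosome ends, the common region nearest to the 2 Mb limit was on chromosome 10 at 2438390 to 2438625, 2.44 Mb from the end, with folds of 3.66 to 4.99. The nearest region left out was on chromosome 21 at 42195418 to 42196635, 1.97 Mb from the end, with folds of 1.87 to 3.04.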

How the data were processed

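Each library has 1 deposited peak list with 9 unnamed columns, laid out as a broadPeak file. Per the submitters' processing notes, reads went through FastQC 0.11.5, Trimmomatic, BWA and Picard. Those notes list the builds GRCz10, mm10 and GRCm38.p4, and the zebrafish build was taken to apply here. Not given in the sources used here are the peak caller, its settings, and any removal of duplicate or mitochondrial reads or shift of Tn5 positions. The authors deposited for each peak a score, a fold enrichment (a ratio over background), a −log10 p-value and a −log10 q-value. In all 5366 peaks the score was 10 times the −log10 q, cut to a whole number. Peaks were called per library and not pooled, so fold and q, which are relative to a list, were only described and ranked.

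Peaks were merged and chained as the report states, with Python 3.11.15, numpy 2.4.6 and pandas 2.3.3 (matplotlib 3.10.9 for plots), and bedtools 2.31.1 gave the same 1326 regions. Chromosome ends were taken from the highest coordinate in the lists. The length under peaks is the number of bases of a region covered by a library's peaks. Values per library were compared by exact permutation of the 5 libraries, with the two-sided p taken as 2 times the smaller one-sided p. Read depth is unknown. The rule was run on simulated lists, where the number of regions it found equalled the number made to meet it. Regions close to the 50 kb and 2 Mb limits were not simulated. The regions, lists and tests were chosen with earlier results of these data known. Named regions were the 10 highest and 5 lowest by mean within-list percentile of fold, the 5 longest and 3 shortest, the 3 closest pairs, the 3 highest and 3 lowest length ratios among separated regions, and chains of 9. Others were named after their values were seen. In the main comparisons replicate numbers were not used to pair libraries, since no label says that they do. A replicate block pairing libraries by number was run only as an alternative.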

Additional observations from a re-analysis of the deposited data

How the results depend on the processing

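The number of common regions stayed within 1.5 times 197 under each alternative, at 174 to 205 over the 6 settings of the rule and 190 to 219 when libraries were left out. Regions were chosen anew in each of these runs. How many of the 197 recurred is not given, so a like number does not show that the regions were the same. Chains with gaps of 100 kb gave 197 regions and the same values as the main setting. The difference in share of covered length turned to -2.31 percentage points where only peaks of q 1e-05 or lower were kept, to -1.64 in lists of equal length (766 peaks) and to -0.18 with the replicate block, whose numbers 1 and 3 leave out control 2. With the block the differences were 8.28 kb in covered length, 49.5 bp in median length and -6.50 in peak number, and 61 regions (31.0%) were longer and 27 (13.7%) shorter in the mutant of both pairs, against 36.1% and 14.4% of the 598. Leaving out libraries moved covered length between -8.50 and 10.4 kb, median length between -48.5 and 74.3 bp, peak number between -29.3 and 18.0, and share between -0.092 and 1.32 percentage points. It gave 39 to 71 longer and 14 to 70 shorter regions, against 26 and 8, which fewer libraries raise by construction. Why the remaining values moved was not examined: the cause was not tested. Deviations of same-numbered libraries correlated at 0.17 for number 1 and 0.14 for number 3, but with 2 mutants these mirror each other and do not show pairing. With the two-sided p computed as in the main comparisons, the smallest exact permutation p that 5 libraries allow is 0.2. Fewer libraries allow only larger values. No alternative could therefore fall below 0.2 or reach 0.05. The difference in share of -2.31 percentage points had an exact permutation p of 0.2, the smallest possible. Its sign was opposite to that of the main setting. The unknown read depth limits every call, since a region without a peak in a list may have been missed.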
